A study of Mus musculus with 22 samples.

Results

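Kidneys of mice without Clock were compared with those of wild-type mice in subjective day, the stretch of the circadian cycle in which mice mostly rest. The comparison used the 7 arrays at zeitgeber time (ZT) 4 and ZT8, out of 22 arrays in the whole series. ZT counts hours from lights on in the earlier light cycle, and lights went off at ZT12. The arrays were chosen by their titles: 4 Clock knockout (KO) arrays, with 2 pools at each time, and 3 wild-type (WT) arrays, with 2 pools at ZT4 and 1 pool at ZT8. The KO mice are clock(-/-) animals from a colony bred from clock(+/-) pairs, a knockout in all cells as far as the labels say, and the WT mice are labelled wild type. Both genotypes lived for 2 weeks in cycles of 12 h light and 12 h dark and then spent 30 h in constant darkness before their kidneys were taken, so ZT4 and ZT8 are times of the internal clock without light. Each array carried 100 ng of RNA combined from 2 or 3 mice, and single mice of a pool cannot be separated. The labels used here give neither sex nor age, and nothing in them says that pools came from separate litters or days. The p-values therefore measure the spread between these pools, which may be partly technical.

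The values are log2 expression per gene from Affymetrix arrays, on which a difference of 1 is a doubling of the signal. Differences are KO minus WT with time as a covariate, and errors after ± are standard errors of the limma fit. A gene was called when its p, adjusted by the Benjamini-Hochberg method over 13967 genes, was under 0.05. Because whole kidneys were measured, fewer cells of a type and less RNA per cell cannot be told apart.

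In the mammalian clock, CLOCK pairs with ARNTL (BMAL1) and switches on genes through E-boxes, among them the period (Per) and cryptochrome (Cry) genes, whose proteins inhibit the pair. The same pair drives Nr1d1 and Nr1d2, which encode the nuclear receptors REV-ERB alpha and beta, and these repress Arntl, Cry1 and Nfil3 through ROR elements. A further arm consists of the PAR bZIP activators Dbp, Tef and Hlf and their opponent Nfil3, which share D-box sites. In kidney, these loops act on tubular transport, on blood pressure systems and on metabolism.

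Marker genes of the nephron were strong in all 7 arrays. The mean log2 level of 10 proximal tubule markers was 12.25 to 12.31 in WT and 12.25 to 12.33 in KO, and 7 markers of the thick ascending limb averaged 10.87 to 11.16 and 10.97 to 11.03. The Y-linked gene Eif2s3y read 8.65 to 9.12 on every array, and Kdm5d and Uty differed by 0.00 ± 0.10 and 0.05 ± 0.11 between genotypes. Adrenal enzyme genes such as Cyp11b1 and Star lay below the filter on dim probe sets, and the adrenal list kept 2 of 9 genes.

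Several arrays stood apart. WT ZT4 pool 2 correlated best with KO ZT4 pool 2 over the genes tested (r = 0.995, against 0.989 with WT ZT4 pool 1). The WT ZT4 pools differed by at least 1 log2 in 38 genes, the KO ZT4 pools in 3 and the KO ZT8 pools in 15. WT ZT4 pool 2 was high in some genes of innate immunity and in the mean of 8 stromal and muscle markers. That mean was 8.53 there and 8.22 to 8.33 on the other 6 arrays. S100a9, a neutrophil calcium-binding protein, read 7.56 there and 4.72 to 5.49 on the other 6 arrays. Lcn2, the secreted iron-siderophore carrier lipocalin 2, read 8.36 there and 6.09 to 6.77 elsewhere. On KO ZT8 pool 1, fat genes were high: the mean of 5 fat markers was 7.44, against 5.43 to 6.36 on the other day arrays. Adiponectin (Adipoq) read 7.75 and the brown fat uncoupler Ucp1 8.34 on that array. Each of these genes is named here because of its values.

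The arrays were also placed by genes that this comparison did not choose. At the other 4 times, 15 arrays gave 710 of 13967 genes called between genotypes (5.08%), and the mean log2 position of each array along these genes was computed with the sign turned so that positive values lie toward KO. WT ZT4 pool 1 lay at -0.19 and WT ZT8 at -0.165, whereas WT ZT4 pool 2 lay at 0.0954, among the KO arrays. The KO ZT4 pools lay at 0.114 and 0.169, and the KO ZT8 pools at 0.124 and 0.0447. Among the day arrays, KO ZT8 pool 2 was thus the KO array nearest to the WT side. Results below are given with all 7 arrays, and also without WT ZT4 pool 2 where that bears on them. The array labelled WT ZT4 pool 2 thus goes against its label on this measure. No gene measured here checks the genotype of an array, so the label could not be checked, and every difference over all 7 arrays rests on it. What sets these arrays apart was not tested.

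**Figure D1:**
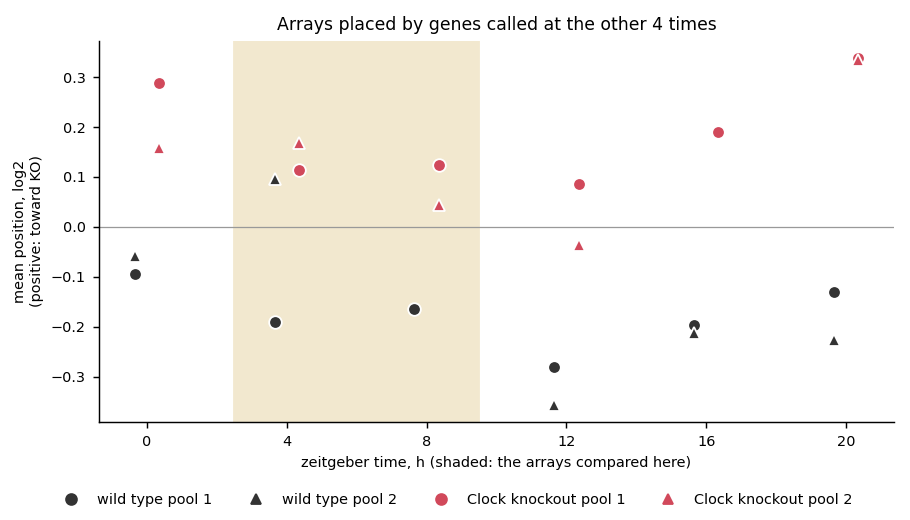
Mean log2 position of each of the 22 arrays (vertical axis) by zeitgeber time in hours (horizontal axis) along the 710 genes called between genotypes at ZT0, ZT12, ZT16 and ZT20; circles are pool 1, triangles pool 2, black WT and red KO. In the shaded span, WT ZT4 pool 2 lies at 0.0954, above KO ZT8 pool 2 at 0.0447, while the other 2 WT arrays lie at -0.19 and -0.165; arrays outside the span helped to choose the genes.

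Over the 7 arrays, limma called 0 of 13967 genes (0%) between KO and WT. At an unadjusted p under 0.05 there were 813 genes (5.82%), of which 361 (2.58%) were higher and 452 (3.24%) lower in KO. The smallest adjusted p was 0.0983, shared by Cry1, Cyp2c23 and Apoh. In 661 genes (4.73%) every KO array lay above every WT array of the same time, and in 995 genes (7.12%) every KO array lay below, or 11.9% together. The median difference of all genes was -0.01.

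The outcome of the test turned on WT ZT4 pool 2. Without that array, 88 genes (0.63%) were called, 52 higher and 36 lower, and 1803 genes (12.9%) had an unadjusted p under 0.05. Leaving out any other single array gave 0 calls. Within pool 1 alone, on 2 KO and 2 WT arrays, 25 genes were called, 21 of them among the 88. With array weights, which let limma count deviating arrays less, 20 genes were called, all among the 88. The pool 1 fit also lacks WT ZT4 pool 2, and the weighted fit gave that array the lowest weight (0.405). These fits thus resemble the fit without that array, and their overlap with the 88 is not separate support. In the values below, WT ZT4 pool 2 often lies between the other WT arrays and the KO arrays.

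**Figure D2:**
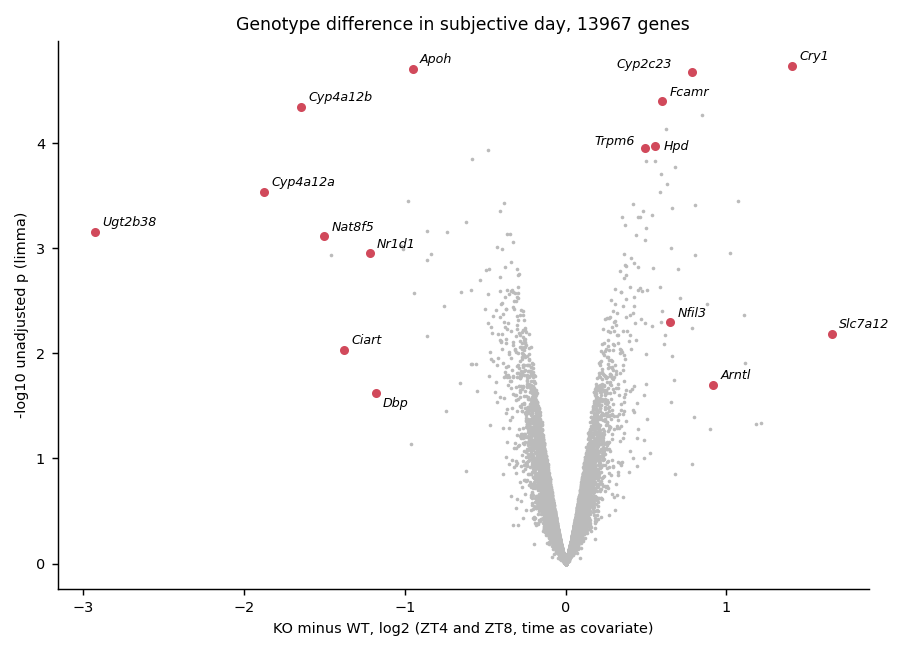
Each point is 1 of 13967 genes, with the KO minus WT difference in log2 over ZT4 and ZT8 on the horizontal axis and -log10 of the unadjusted limma p on the vertical axis; red points are 16 of the genes named in the text. Cry1 at 1.41 and Cyp2c23 at 0.79 are the highest points on the right and Apoh at -0.95 on the left, and Ugt2b38 at -2.93 lies farthest to the side.

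Clock itself was measured by a probe set that read about the same in both genotypes. The WT arrays gave 8.81 and 8.91 at ZT4 and 8.49 at ZT8, and the KO arrays gave 8.85 and 8.97 at ZT4 and 8.98 and 8.73 at ZT8. The difference was 0.17 ± 0.10 (limma adjusted p = 0.927). The part of the gene that was deleted is not given in the sources used here, so this signal does not check the genotype. Arntl, the partner of CLOCK, read 7.20, 7.74 and 5.58 in WT (ZT4 pool 1, ZT4 pool 2, ZT8) and 7.91, 7.61, 7.86 and 7.04 in KO (ZT4 pools 1 and 2, ZT8 pools 1 and 2), an order used for all values that follow. At ZT8, KO pool 1 stayed near its ZT4 value and KO pool 2 was lower, and both lay above the low WT pool. At ZT4 the genotypes overlapped. The difference was 0.92 ± 0.33 over both times (adjusted p = 0.716), with 0.29 ± 0.27 at ZT4 and 1.87 ± 0.33 at ZT8. The difference between both times was 1.59 ± 0.42 (unadjusted p = 0.0056, not called). Among all genes, 524 (3.75%) had an unadjusted p under 0.05 in that contrast and 0 were called by limma. The other activators gave small values, -0.03 ± 0.12 for Arntl2, a paralogue of Arntl, and -0.07 ± 0.09 for Rora, the receptor that activates through ROR elements.

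The repressors split by gene. Of 10 measured clock repressors, 3 were higher (Cry1, Cry2, Per2) and 3 lower (Nr1d1, Nr1d2, Ciart) at an unadjusted p under 0.05, and the same 6 did not overlap between genotypes within each time. All genes gave 2.58% and 3.24% in the same directions, and 4.73% and 7.12% without overlap. The median of the list was -0.10, because both directions were filled.

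Cry1, a core inhibitor of the CLOCK and ARNTL pair, had the smallest p of all genes. Its WT arrays read 5.45, 6.09 and 5.92, and its KO arrays read 7.02, 7.29, 7.62 and 7.09. All KO arrays stood above all WT arrays, with a gap wider than the spread inside either genotype. The difference was 1.41 ± 0.17 (adjusted p = 0.0983), and it was 1.58 between the pool 1 arrays at ZT4, 1.21 between the pool 2 arrays and 1.70 between the pool 1 arrays at ZT8. Cry1 was called in 8 of the 22 other fits (adjusted p from 0.000445 to 0.988), with differences from 1.25 to 1.71. The lowest adjusted p came without WT ZT4 pool 2 and KO ZT8 pool 2, as for Nr1d1 and Ugt2b38 below. These are the day arrays nearest to the other genotype. Cry2, the second cryptochrome, read 7.23, 7.09 and 7.78 in WT and 7.68, 7.84, 7.80 and 7.93 in KO. The genotypes were apart at ZT4 and nearly level at ZT8, with 0.39 ± 0.11 over both times (adjusted p = 0.557).

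Among the period genes, which encode the partners of the cryptochromes, Per2 had the larger difference. It read 6.81, 6.26 and 7.35 in WT and 6.91, 7.14, 7.44 and 7.62 in KO. The difference was 0.37 ± 0.14 (adjusted p = 0.773). Within pool 1 it was 0.09, and the low WT value belongs to WT ZT4 pool 2. Per1 differed by 0.04 ± 0.14 and Per3 by -0.20 ± 0.20, and in both genes the genotypes overlapped. The helix-loop-helix repressors Bhlhe40 (0.01 ± 0.10) and Bhlhe41 (-0.27 ± 0.28) overlapped as well.

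Nr1d1, the heme-binding repressor of Arntl and Cry1, read 10.04, 9.22 and 10.19 in WT and 8.76, 8.68, 8.08 and 8.94 in KO. Every KO array lay below every WT array. The difference was -1.22 ± 0.26 (adjusted p = 0.308), and -1.50 ± 0.20 without WT ZT4 pool 2. Nr1d1 was called in 3 of 22 other fits, with adjusted p from 0.00492 to 1. All 3 of these fits lack WT ZT4 pool 2. The paralogue Nr1d2 read 9.51, 8.99 and 9.87 in WT and 8.70, 8.94, 8.71 and 9.41 in KO, with a difference of -0.58 ± 0.19 (adjusted p = 0.643). Both KO arrays were lower at each time, but at ZT4 the gap between KO pool 2 and WT pool 2 was small. Ciart, which also inhibits CLOCK and ARNTL, read 6.44, 5.69 and 8.39 in WT and 5.20, 5.30, 5.32 and 7.03 in KO. Its WT level was far higher at ZT8 than at ZT4, and of the KO arrays only ZT8 pool 2 was high. The difference was -1.38 ± 0.42 (adjusted p = 0.581).

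The promoters of Cry1, Ciart and Nr1d1 are shown because these repressors had large differences, Cry1 upward and the others downward, and because the window of each holds a hexamer that the CLOCK and ARNTL pair is known to bind. Each window runs from 250 bases before to 50 after the gene start, from RefSeq on GRCm38.p6, 5′ to 3′ on the strand of the gene. Cry1 lies at chr10:85185005-85185304, Ciart at chr3:95882179-95882478 and Nr1d1 at chr11:98775328-98775627, all on the minus strand. Capitals mark the E-box CACGTG and the E-box-like CACGTT, searched on both strands, the second reading AACGTG on the other strand.
Cry1: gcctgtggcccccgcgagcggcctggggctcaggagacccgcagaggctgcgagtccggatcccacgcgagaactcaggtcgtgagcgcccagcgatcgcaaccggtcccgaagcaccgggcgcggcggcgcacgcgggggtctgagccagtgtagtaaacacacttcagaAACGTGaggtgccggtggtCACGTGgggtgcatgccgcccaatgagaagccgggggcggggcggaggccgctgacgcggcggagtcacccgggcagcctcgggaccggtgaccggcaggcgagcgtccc
Ciart: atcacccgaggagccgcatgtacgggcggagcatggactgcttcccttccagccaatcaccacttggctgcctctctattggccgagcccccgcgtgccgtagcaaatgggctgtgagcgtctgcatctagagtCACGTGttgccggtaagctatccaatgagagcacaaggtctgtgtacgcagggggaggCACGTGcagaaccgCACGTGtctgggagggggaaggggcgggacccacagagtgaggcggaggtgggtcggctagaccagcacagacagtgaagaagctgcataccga
Nr1d1: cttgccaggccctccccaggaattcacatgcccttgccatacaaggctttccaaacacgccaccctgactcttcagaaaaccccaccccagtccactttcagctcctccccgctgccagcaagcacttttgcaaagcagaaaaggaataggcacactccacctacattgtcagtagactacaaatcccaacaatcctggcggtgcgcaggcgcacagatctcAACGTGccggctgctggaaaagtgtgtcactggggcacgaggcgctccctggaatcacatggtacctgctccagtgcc
The Ciart window holds 3 E-boxes, and the Cry1 window holds 1 E-box and 1 E-box-like hexamer 19 bases upstream of it. CACGTG was found in 5 of the 16 clock genes listed with a promoter (Bhlhe41, Ciart, Cry1, Per1, Tef) and in 8.09% of all genes. CACGTT was found in Cry1, Cry2 and Nr1d1 and in 5.44% of all genes. The genes that hold a hexamer include some that were higher, some lower and some with little difference in KO.

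In the PAR bZIP arm, Dbp, an activator at D-boxes, read 9.10, 7.99 and 10.83 in WT and 7.64, 8.12, 8.04 and 9.69 in KO. At ZT4 the genotypes overlapped, since WT pool 2 lay below KO pool 2, and at ZT8 both KO arrays were lower. The difference was -1.18 ± 0.43 (adjusted p = 0.724), and -1.59 ± 0.38 without WT ZT4 pool 2. Within pool 2 at ZT4 the sign turned, to 0.14. Nfil3, the repressor that competes for the same sites, read 6.55, 7.06 and 6.15 in WT and 7.25, 7.10, 7.40 and 7.03 in KO, with a difference of 0.65 ± 0.18 (adjusted p = 0.490). The KO arrays were higher at each time, by 0.70 within pool 1 and 0.04 within pool 2 at ZT4. Tef (-0.26 ± 0.17) and Hlf (0.03 ± 0.11), the other PAR activators, overlapped.

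**Figure D3:**
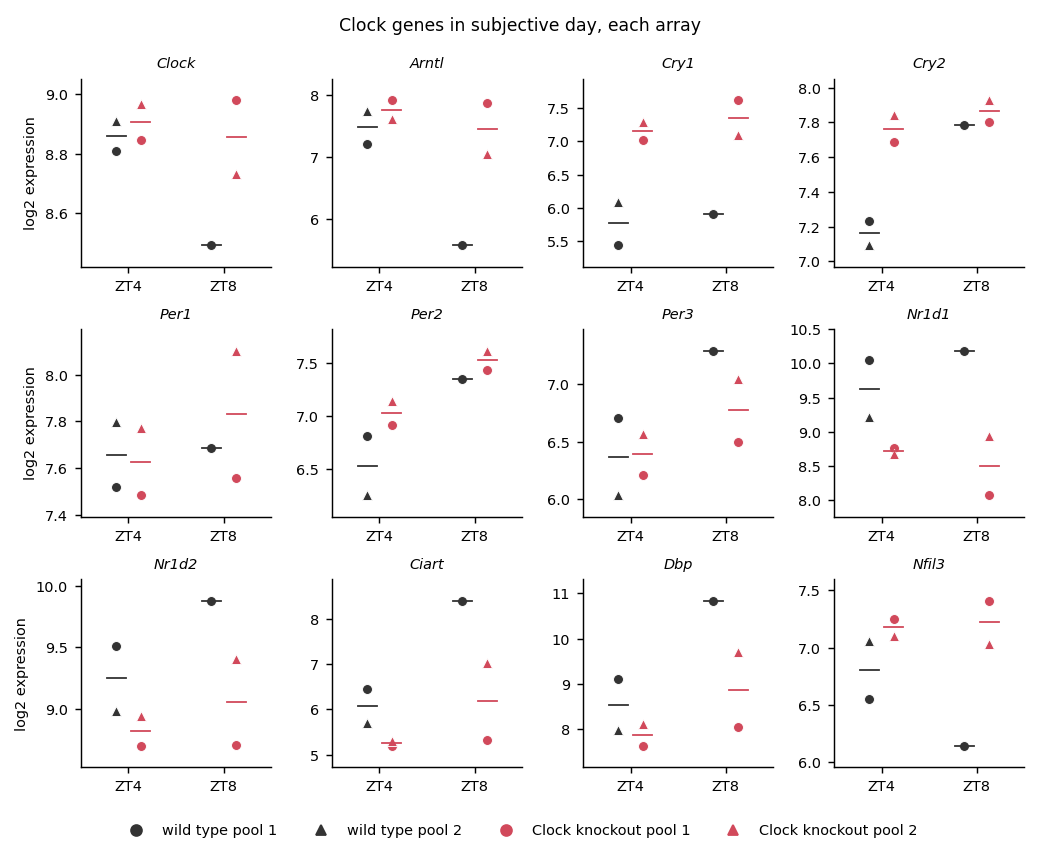
Log2 expression of 12 clock genes (vertical axes, separate scales) at ZT4 and ZT8, with 1 point per array, circles for pool 1, triangles for pool 2 and short lines for group means. The 4 KO points of Cry1, at 7.02 to 7.62, lie above its 3 WT points, at 5.45 to 6.09; those of Nr1d1 lie below, and WT ZT4 pool 2 is the WT triangle nearest to the KO points in Nr1d1, Nr1d2, Ciart and Nfil3.

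Enzymes that modify clock proteins had small differences. Of 9 measured kinases and ligases, such as casein kinase Csnk1d (0.09 ± 0.08) and Csnk1e (-0.08 ± 0.09), 0 had an unadjusted p under 0.05 and 0 were apart without overlap, beside 5.82% and 11.9% of all genes, and their differences ran from -0.08 to 0.09. Of 15 clock output genes, 3 were higher at an unadjusted p under 0.05 and apart without overlap. Ypel2 read 6.97, 7.27 and 6.54 in WT and 7.67, 7.65, 7.55 and 7.33 in KO, with a difference of 0.68 ± 0.11 (adjusted p = 0.169). Rhobtb1 read 8.45, 8.72 and 8.04 in WT and 9.01, 9.03, 8.90 and 8.81 in KO, with 0.59 ± 0.10 (adjusted p = 0.228). All KO arrays stood above all WT arrays in both genes. Wee1, a cell cycle kinase (0.10 ± 0.15), and Usp2, a ubiquitin protease (-0.13 ± 0.12), did not separate.

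Whether these differences belong to the day was asked with a fit of 12 group means over all 22 arrays, in which the KO minus WT difference of the day was set against early night (ZT12 and ZT16, 7 arrays) and dawn (ZT20 and ZT0, 8 arrays). In that fit 4 genes (0.0286%) were called in the day, namely Arntl, Cry1, Rhobtb1 and the glucose-6-phosphatase gene G6pc, all higher in KO, and 891 (6.38%) had an unadjusted p under 0.05. For the contrasts themselves limma called 0 genes. The unadjusted p was under 0.05 in 539 genes (3.86%) against early night and in 591 (4.23%) against dawn.

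The difference of Cry1 was larger in the day than at the other times, though neither contrast was called with all arrays. Its KO minus WT value was 1.42 ± 0.14 in the day, 0.44 ± 0.14 in early night and 0.26 ± 0.13 at dawn. The day difference exceeded that in early night by 0.98 ± 0.20 (adjusted p = 0.583), and by 1.14 ± 0.16 without WT ZT4 pool 2. It exceeded that at dawn by 1.16 ± 0.19 (adjusted p = 0.152). Without WT ZT4 pool 1 the contrast with dawn was 0.996 ± 0.16. It was 1.32 ± 0.16 without WT ZT4 pool 2 and 1.29 ± 0.17 without KO ZT8 pool 2. Each of these fits leaves 1 pool in a group. WT ZT4 pool 2 and KO ZT8 pool 2 are the day arrays nearest to the other genotype. A wider day gap is thus built into the fits without them, which are not separate support. Nr1d1 gave -1.30 ± 0.23 in the day, -0.60 ± 0.23 in early night and 0.25 ± 0.21 at dawn, and its contrast between day and dawn was -1.55 ± 0.31 (adjusted p = 0.331). Arntl went the other way between day and early night, with 1.08 ± 0.17 in the day, 1.89 ± 0.17 in early night and 0.14 ± 0.15 at dawn. Per2 was higher in KO in the day (0.33 ± 0.15) and lower in early night (-0.55 ± 0.15), a contrast of 0.89 that was not called (adjusted p = 0.600).

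Ypel2 and Rhobtb1 were higher in KO in day and early night alike and level at dawn. Ypel2 gave 0.72 ± 0.12, 0.78 ± 0.12 and -0.08 ± 0.11, and Rhobtb1 gave 0.63 ± 0.08, 0.77 ± 0.08 and 0.02 ± 0.07. G6pc, which releases glucose at the end of gluconeogenesis, gave 0.48 ± 0.07 in the day, 0.23 ± 0.07 in early night and -0.08 ± 0.06 at dawn. Its day difference exceeded that at dawn by 0.57 ± 0.09 (adjusted p = 0.152), and by 0.625 ± 0.088 without KO ZT8 pool 2. Ddc, which makes dopamine in the proximal tubule, was level in the day (0.15 ± 0.09) and higher in KO in early night (0.99 ± 0.09). The contrast was -0.84 (adjusted p = 0.144), and -0.923 ± 0.12 without WT ZT4 pool 1.

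**Figure D4:**
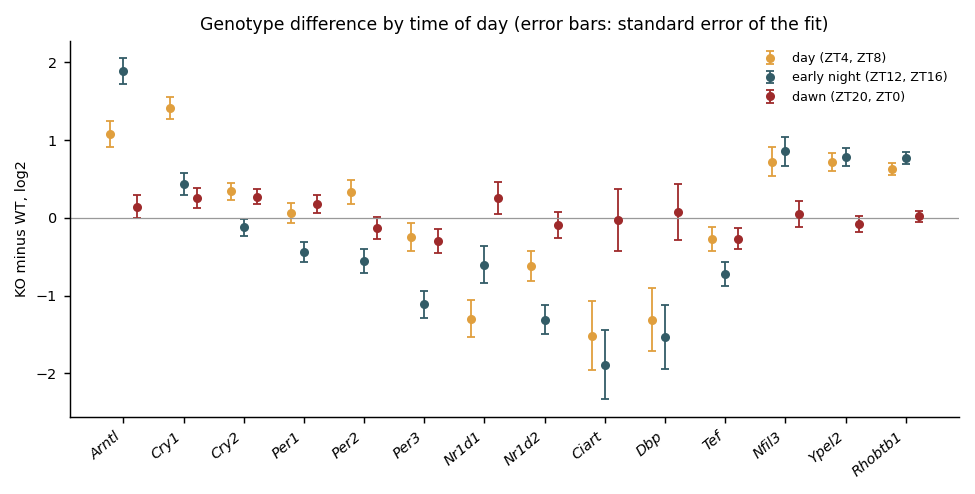
KO minus WT difference in log2 (vertical axis) of 14 clock and output genes in day (ZT4 and ZT8), early night (ZT12 and ZT16) and dawn (ZT20 and ZT0), from 12 group means over 22 arrays; error bars are standard errors of the fit. Cry1 stands at 1.42 in the day and at 0.44 and 0.26 at the other times, and Nr1d1 runs from -1.30 in the day to 0.25 at dawn.

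Outside the clock, single genes of arachidonic acid metabolism were apart between genotypes in both directions. Of 15 measured genes for 20-HETE and epoxides, lipids that act on vessel tone and sodium transport, 1 was higher and 4 were lower at an unadjusted p under 0.05, beside 2.58% and 3.24% of all genes, and 0 were called. Cyp2c23, an epoxygenase of the tubule, read 9.06, 9.43 and 9.27 in WT and 10.09, 10.01, 9.95 and 10.10 in KO. All KO arrays stood above all WT arrays, and WT ZT4 pool 2 stayed with the WT arrays. The difference was 0.79 ± 0.10 (adjusted p = 0.0983), with 1.03 within pool 1 and 0.59 within pool 2 at ZT4, and it was called in 6 of 22 other fits (adjusted p from 0.00751 to 0.988).

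The 20-HETE synthases Cyp4a12a and Cyp4a12b were lower in KO. Cyp4a12b read 9.77, 9.19 and 10.09 in WT and 8.12, 7.73, 7.85 and 8.78 in KO, with a difference of -1.64 ± 0.22 (adjusted p = 0.126). Cyp4a12a read 9.83, 8.55 and 10.18 in WT and 7.53, 7.07, 7.76 and 8.88 in KO, with -1.88 ± 0.33 (adjusted p = 0.228). KO ZT8 pool 2 was the KO array nearest to WT, and at each time the genotypes were apart. Both genes are near-identical copies, so their signals may be shared. Cyp4a14, another member, read 8.98, 11.00 and 10.63 in WT and 11.14, 11.12, 10.68 and 10.55 in KO, where the WT ZT4 pools were farther apart than the genotypes.

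Of 12 sodium transport genes 0 were higher and 1 was lower at an unadjusted p under 0.05, a share near the 5.82% of all genes. It was the sodium-proton exchanger Slc9a2 (-0.20 ± 0.08, adjusted p = 0.790). The proximal exchanger Slc9a3 differed by -0.14 ± 0.09, the thiazide-sensitive cotransporter Slc12a3 by 0.06 ± 0.07 and the epithelial channel subunit Scnn1b by 0.15 ± 0.08. Among 14 regulators of distal sodium transport, 2 were higher: Tsc22d3 (GILZ), an aldosterone and glucocorticoid target, by 0.38 ± 0.11 (adjusted p = 0.519), and the kinase Sgk1 by 0.26 ± 0.11 (adjusted p = 0.844). Of 17 glucocorticoid-responsive genes as a whole, 2 were higher and 3 were lower.

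In the lists for water and for other ions, a few receptors and channels were higher in KO. Avpr1a, the V1a vasopressin receptor, read 8.25, 8.61 and 7.92 in WT and 8.97, 8.96, 9.0 and 8.52 in KO. KO was higher at each time, but the lowest KO array lay below WT ZT4 pool 2. The difference was 0.66 ± 0.14 (adjusted p = 0.302). Trpm6, the magnesium channel of the distal convoluted tubule, read 7.09, 7.31 and 7.12 in WT and 7.64, 7.68, 7.67 and 7.68 in KO. The 4 KO arrays lay within 0.05 of one another and above all WT arrays, with a difference of 0.50 ± 0.08 (adjusted p = 0.160). Parvalbumin (Pvalb), a calcium buffer of the same segment, differed by 0.38 ± 0.09 (adjusted p = 0.417).

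All 8 markers of the distal convoluted tubule had positive differences, with a median of 0.17, beside 46% of all genes with a positive sign. Of these, 3 had an unadjusted p under 0.05, Trpm6 and Pvalb among them, beside 5.82% of all genes. The count and mean of the list thus hold the values of these genes. The mean level of the list was 9.40 to 9.63 in WT and 9.62 to 9.72 in KO, so WT ZT4 pool 2, at the top of the WT range, reached the KO range. Slc12a3, which defines the segment, differed by 0.06 ± 0.07. The part of segment size in the values of Trpm6 and Pvalb was not tested.

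In amino acid handling, 0 genes were called. Of 13 genes of amino acid and glyoxylate breakdown, 5 were higher and 1 was lower at an unadjusted p under 0.05, beside 2.58% and 3.24% of all genes, with a median of 0.15 against -0.01. Hpd, an enzyme of tyrosine breakdown, read 9.20, 9.17 and 9.38 in WT and 9.80, 9.61, 10.10 and 9.87 in KO, a difference of 0.56 ± 0.08 (adjusted p = 0.160). Agxt2, an aminotransferase that clears methylated arginines, read 10.24, 10.46 and 10.35 in WT and 10.78, 10.93, 10.82 and 10.85 in KO, a difference of 0.50 ± 0.08 (adjusted p = 0.160). In both genes all KO arrays stood above all WT arrays, and WT ZT4 pool 2 lay with WT. Slc7a12, an amino acid transporter, behaved otherwise, with 7.94, 10.48 and 8.79 in WT and 10.77, 10.78, 10.57 and 10.61 in KO. The 4 KO arrays were close together, and WT ZT4 pool 2 lay almost at their level. The difference was 1.66 ± 0.47 with all arrays (adjusted p = 0.521) and 2.32 ± 0.19 without WT ZT4 pool 2. The other 14 amino acid transporters held 0 genes with an unadjusted p under 0.05, and Slc7a5, the large neutral amino acid carrier, differed by -0.16 ± 0.08.

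Of 15 genes of cholesterol synthesis 0 were higher and 4 were lower at an unadjusted p under 0.05, beside 2.58% and 3.24% of all genes, and 0 were called. Only 2 had a positive sign, beside 46% of all genes, and the median was -0.08. Squalene epoxidase (Sqle), an early oxygen-dependent step, read 9.11, 9.42 and 9.06 in WT and 8.81, 8.71, 8.72 and 8.87 in KO, a difference of -0.41 ± 0.10 (adjusted p = 0.402). Idi1, the isopentenyl diphosphate isomerase, differed by -0.30 ± 0.07 (adjusted p = 0.402). The KO arrays lay below the WT arrays of the same time in both genes. In fatty acid oxidation and PPAR targets, 0 of 19 were higher and 2 were lower: Cd36, the fatty acid translocase, by -0.39 ± 0.10 (adjusted p = 0.472) and Acsm3, a medium-chain acyl-CoA synthetase, by -0.46 ± 0.15 (adjusted p = 0.623).

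Other metabolic lists held a few genes each at an unadjusted p under 0.05, and 0 were called. All genes gave 2.58% higher and 3.24% lower, the shares to set beside each count of this paragraph. Of 15 genes of glucose uptake and gluconeogenesis 2 were higher and 0 lower. Of 16 genes of acid-base and ammonia handling 2 were higher and 0 lower. Pck1, the gatekeeper enzyme of gluconeogenesis, stands in both lists and differed by 0.21 ± 0.09 (adjusted p = 0.798), and Slc38a3, the glutamine carrier that feeds ammonia production, by 0.30 ± 0.10 (adjusted p = 0.667). Of 12 monocarboxylate carriers 2 were higher. Slc16a1, which carries lactate and ketone bodies, read 9.28, 9.89 and 8.45 in WT and 9.87, 9.79, 9.48 and 9.15 in KO, so WT ZT4 pool 2 lay at the top of all arrays, and the difference was 0.50 ± 0.18 (adjusted p = 0.716). In kynurenine and NAD synthesis 2 of 14 were higher and 1 was lower. Kynu, kynureninase, read 6.84, 8.52 and 7.48 in WT and 8.08, 8.48, 8.49 and 8.64 in KO (0.80 ± 0.33, adjusted p = 0.816), again with WT ZT4 pool 2 among the KO arrays. Acmsd, which steers tryptophan carbon away from NAD, was lower by sign, at -0.23 ± 0.07 (adjusted p = 0.626).

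In blood pressure systems beside the eicosanoids, 2 of 7 renin-angiotensin genes were higher at an unadjusted p under 0.05 and 0 were lower. All genes gave 2.58% and 3.24% in these directions. Mme, neprilysin, which cleaves angiotensins and natriuretic peptides, read 10.25, 10.54 and 10.44 in WT and 10.63, 10.73, 10.70 and 10.67 in KO, a difference of 0.27 ± 0.09 (adjusted p = 0.628). Agt, angiotensinogen, differed by 0.30 ± 0.13 (adjusted p = 0.808). Of 10 genes for endothelin and nitric oxide, 0 had an unadjusted p under 0.05, near the 5.82% of all genes. The endothelin receptor Ednrb differed by -0.16 ± 0.09.

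Among genes for the handling of drugs, Ugt2b38, a glucuronosyltransferase, had the largest difference of all genes tested. It read 12.03, 10.52 and 11.76 in WT and 7.87, 8.20, 7.96 and 10.62 in KO. Of the KO arrays, 3 were low and ZT8 pool 2 lay near WT ZT4 pool 2. The difference was -2.93 ± 0.58 (adjusted p = 0.266), with -4.16 within pool 1 and -2.32 within pool 2 at ZT4, and it was called in 2 of 22 other fits (adjusted p from 2.68e-06 to 1). Both of these fits lack WT ZT4 pool 2. Ugt2a3 of the same family was higher in KO, by 1.11 ± 0.29 (adjusted p = 0.474). At an unadjusted p under 0.05, the 5 measured Ugt2 genes held 2 higher and 2 lower, beside 2.58% and 3.24% of all genes. The part of DNA linked to the Clock locus in these values was not tested. Nat8f5, of the N-acetyltransferase 8 family, read 8.41, 7.36 and 8.43 in WT and 5.76, 6.10, 7.31 and 7.91 in KO. Its KO arrays were lower at ZT4 than at ZT8, and the difference was -1.50 ± 0.30 (adjusted p = 0.270). Members of both families are close copies, and the signal of one probe set may include another gene.

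Abcb1b, a P-glycoprotein that pumps drugs out of cells, read 6.15, 7.27 and 6.56 in WT and 7.70, 7.69, 7.57 and 7.72 in KO. The 4 KO arrays were close together and above all WT arrays, of which WT ZT4 pool 2 was the highest. The difference was 1.02 ± 0.22 (adjusted p = 0.308), and 1.31 ± 0.11 without that array. Of 9 efflux pumps 3 were higher and 0 were lower at an unadjusted p under 0.05, beside 2.58% and 3.24% of all genes, with Abcc3 at 0.42 ± 0.09 (adjusted p = 0.340). In organic ion transport, 1 of 19 genes was higher and 5 were lower, beside the same shares. Slc22a29 (0.80 ± 0.17, adjusted p = 0.308) and Slc22a26 (-1.01 ± 0.21, adjusted p = 0.302) belong to one transporter family and were apart in opposite directions.

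Several of these genes are known to differ between male and female mouse kidneys. Of 18 measured genes on such a list, which includes Cyp4a12a and Cyp4a12b, 2 were higher and 6 were lower at an unadjusted p under 0.05, beside 2.58% and 3.24% of all genes. Kap, the androgen-regulated protein of the proximal tubule, read 13.43 to 13.52 on all arrays, a difference of -0.01 ± 0.07. Odc1, ornithine decarboxylase, differed by -0.35 ± 0.12 and Cyp7b1, an oxysterol hydroxylase, by -0.56 ± 0.18. Hormone levels were not measured, and their part in these values was not tested.

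**Figure D5:**
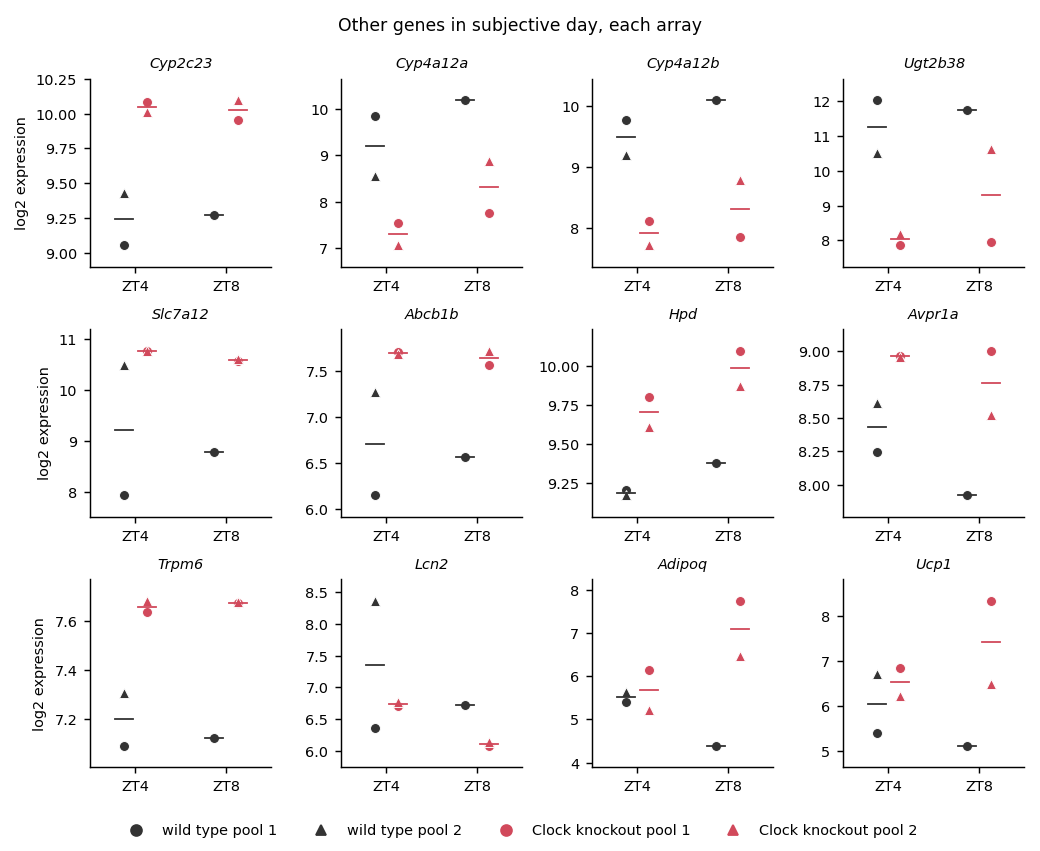
Log2 expression of 12 genes outside the clock (vertical axes, separate scales) at ZT4 and ZT8, with 1 point per array, circles for pool 1, triangles for pool 2 and short lines for group means. Cyp2c23, Hpd and Trpm6 show KO points above all WT points; in Slc7a12 WT ZT4 pool 2 reaches 10.48, near the KO points; Lcn2 at 8.36 on WT ZT4 pool 2 and Adipoq at 7.75 and Ucp1 at 8.34 on KO ZT8 pool 1 are values of single arrays.

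In the stress and growth lists, counts lay near the share of all genes with an unadjusted p under 0.05 (5.82%), which for lists of this size is about 1 gene or none. There were 0 of 13 heat shock genes, 0 of 18 chaperones of the endoplasmic reticulum, 0 of 13 proliferation genes and 0 of 3 cold-inducible genes. The heat shock gene Dnajb1 differed by 0.19 ± 0.11 and the cold-inducible gene Cirbp by -0.13 ± 0.13. In oxidative phosphorylation 0 of 20 genes had an unadjusted p under 0.05, 17 had a positive sign, beside 46% of all genes, and the differences ran from -0.02 to 0.13. Among 12 immediate early genes 1 was higher, Myc, by 0.35 ± 0.10 (adjusted p = 0.520), and among 9 interferon-responsive genes 1 was higher, Rsad2, by 0.24 ± 0.10 (adjusted p = 0.831). Of 14 matrix genes, with fibronectin (Fn1) at -0.21 ± 0.11, 0 had an unadjusted p under 0.05.

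Markers of other cell types differed most in fat. Of the podocyte (6), thick ascending limb (7), intercalated cell (10) and endothelial (9) markers, 0 had an unadjusted p under 0.05, and of 9 principal cell markers 2 were higher, beside 5.82% of all genes in either direction. Of 6 urothelial markers 2 were higher, with a median of 0.19 and a list mean of 6.32 to 6.55 in WT and 6.47 to 6.65 in KO. Of 8 stromal and muscle markers 0 passed, with a median of -0.16, and of 2 red blood cell genes 0 passed, with a median of 0.23. Immune markers had a median of -0.17, with 3 of 11 lower, and their mean was 7.49 to 7.86 in WT and 7.45 to 7.55 in KO. Without WT ZT4 pool 2 the median was -0.07 and 1 was lower. Fat markers had 3 of 5 higher and a median of 0.51, with the mean 5.43 to 6.12 in WT and 5.86 to 7.44 in KO. Adipoq differed by 1.18 ± 0.51 with all arrays and by 0.80 without KO ZT8 pool 1.

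Last, genes that separated the genotypes at the other times were looked up in the day, on arrays that had no part in their choice. Of the 710 genes called over 15 arrays at ZT0, ZT12, ZT16 and ZT20, 645 (90.8%) had the same sign in the day, against 64.4% of all genes. Their median size was 0.30 at the other times and 0.16 in the day. In the same direction, 237 (33.4%) had an unadjusted p under 0.05 in the day, against 5.07% of all genes. Without WT ZT4 pool 2, 669 (94.2%) had the same sign, against 72.1% of all genes. That array lay toward KO along these same genes, so leaving it out favours a shared sign and adds no separate support. With both KO ZT20 pools left out at the other times, 211 genes were past the threshold (1.51%), and in the day 207 (98.1%) shared their sign, against 63.3% of all genes. Abcb1b is an example, with 1.06 ± 0.07 at the other times and 1.02 ± 0.22 in the day, as are Cyp2c23 with 0.70 ± 0.10 and 0.79 ± 0.10 and Ugt2b38 with -4.11 ± 0.39 and -2.93 ± 0.58. Nr1d1 is one that was apart in the day and gave -0.20 ± 0.20 over the other times together.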

How the data were processed

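RNA of mouse kidney pools was measured on Affymetrix whole-transcript arrays. The authors deposited log2 expression per probe set for 22 arrays, for which the submitters' processing notes name RMA. This method removes background, quantile-normalizes all arrays and summarises probes, so a shift shared by most genes is lost. The software version and genome build were not given in the sources used here. Precision is limited by the number of arrays.

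Of 35556 probe sets, 21789 have 1 symbol in the platform annotation, 1621 several and 12146 are not listed. RefSeq matched 21698, and 0 symbols changed. Dim probe sets, with a mean under the 30th percentile (5.21), were left out, and the brightest stood for its gene, leaving 13967 genes. limma 3.58.1 in R 4.3.3 fitted genotype with time as covariate to the 7 arrays (4 residual degrees of freedom), group contrasts on the same arrays, where the single WT ZT8 pool is assumed to vary like the other groups, and 12 group means over all 22 arrays. The fits were tested on simulated data. WT and KO genes were compared within each time for overlap.

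The comparison and its gene lists (36 of pathways, 14 of markers) were chosen with earlier results of these data known. Named genes were Clock, all measured activators, repressors and PAR bZIP genes, and up to 4 members of each other list, those called or with the smallest p, up to 2 where fewer were called. Genes outside that rule (Apoh, Fcamr, Baat, S100a9, Lcn2, Adipoq, Ucp1, Eif2s3y, Kdm5d, Uty, Kap, Odc1, Kynu, Cyp4a14, Slc9a3, Slc12a3, Wee1, Usp2, Ddc and those of the closing section) were chosen after their values were seen. Alternatives were other filters, normalizations, spreads, weights, pool blocks and left-out arrays. The looks at genes called at the other times, and their variants, were added after seeing the data. Of the listed genes, 57 had no 1-symbol probe set and were not analysed here, Npas2 among them.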

Additional observations from a re-analysis of the deposited data

How the results depend on the processing

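The day comparison gave 0 called genes, and also 0 with a 50th percentile filter, every probe set on its own, a repeated quantile normalization, ZT4 alone, ZT8 alone, and a test against 0.25 log2. It gave 1 without a filter (Bex1), 5 with array medians subtracted (3 higher, 2 lower), 3 without the time covariate, 25 within pool 1 (12 higher, 13 lower; 1 residual degree of freedom before the shared spread), 6 with a trended robust spread, 20 with array weights (15 higher, 5 lower), 4 from 12 group means, and 76 without both WT ZT4 pool 2 and KO ZT8 pool 2 (41 higher, 35 lower). Among the day arrays, the 2 left out for the 76 calls lie nearest to the other genotype along the genes called at other times. A wider gap between genotypes was thus built into that fit, and its count is not separate support. The lowest adjusted p given for Cry1, Nr1d1 and Ugt2b38 came from it. Leaving out 1 array gave 0 to 88, and 88 was without WT ZT4 pool 2. Subtracting medians moved the split at an unadjusted p under 0.05 from 361 higher and 452 lower to 435 and 283, while the median of all genes went from -0.01 to 0.01. The contrast between ZT8 and ZT4 gave 0 to 1 (Cyp4a14, without WT ZT4 pool 2), day against early night 0 to 2 (Ddc and Lcn2 without WT ZT4 pool 1, Alas2 and Cry1 without pool 2), and day against dawn 0 to 7 (7 without WT ZT4 pool 1, 1 without pool 2, 2 without KO ZT8 pool 2). Contrasts without the WT ZT8 pool could not be fitted. With the replicate block (pool number), 0 genes were called in the day (smallest adjusted p 0.0904, 1129 at an unadjusted p under 0.05 against 813 without it) and 0 in both contrasts against other times, where genes at an unadjusted p under 0.05 went from 539 to 1076 against early night and from 591 to 853 against dawn. Deviations of same-numbered pools correlated at 0.359, 0.394 and 0.119 between groups, over 2 numbers only. Whether same-numbered pools were handled together is not in the labels and was not tested. The main fits do not pair them. For the 81 genes followed through these settings, 1699 of 1772 values stayed on the same side of the threshold and 73 passed it where all 7 arrays did not. The sign turned in 41 values of 11 genes, such as Per1, Per3 and Bhlhe41, all with an unadjusted p of 0.05 or more and differences of at most 0.268 over all 7 arrays, and in 0 values of the 52 genes under 0.05. The causes were not tested.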

Other observations

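Genes of secreted plasma proteins, chosen after their values were seen, differed in both directions. Apoh, beta-2-glycoprotein I, read 7.19, 7.07 and 7.05 in WT (ZT4 pool 1, ZT4 pool 2, ZT8) and 6.26, 5.86, 6.19 and 6.37 in KO (ZT4 pools 1 and 2, ZT8 pools 1 and 2), a difference of -0.95 ± 0.12 (limma adjusted p = 0.0983). All KO arrays lay below all WT arrays, and it was called in 7 of 21 other fits. Fibrinogen chains were higher: Fgb read 6.14, 6.49 and 5.92 in WT and 7.10, 6.77, 6.79 and 6.50 in KO, a difference of 0.66 ± 0.12 (adjusted p = 0.238), and Fgg differed by 0.88 ± 0.22 (adjusted p = 0.441). Both passed only in fits that lack WT ZT4 pool 2, the highest WT array in both genes, and not with all 7 arrays. Those fits are not separate support. Havcr1 (KIM-1), a marker of proximal tubule injury, was lower by sign, at -0.37 ± 0.07 (adjusted p = 0.266). It is dim, with KO arrays at 5.14 to 5.24, near the filter value of 5.21. Among liver markers Alb differed by -1.02 ± 0.21 (adjusted p = 0.302), while the list mean was 7.41 to 7.58 in WT and 7.22 to 7.35 in KO, and Ahsg and Cyp2c29 lay below the filter.

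Fcamr, a receptor for IgA and IgM, and Baat, which conjugates bile acids, were also among the smallest p. Fcamr read 7.59, 7.37 and 7.64 in WT and 8.12, 8.05, 8.16 and 8.31 in KO (0.60 ± 0.08, adjusted p = 0.126). Baat read 5.13, 5.42 and 5.16 in WT and 5.91, 6.31, 6.14 and 5.91 in KO (0.85 ± 0.12, adjusted p = 0.126). Baat is dim in WT, where ZT4 pool 1 and ZT8 lie under 5.21, the filter value for the mean of all arrays. In both genes the genotypes did not overlap. Bex1, dim enough to be left out by the filter, read 4.78, 4.85 and 4.80 in WT and 5.62, 5.62, 5.64 and 5.71 in KO, and was the gene called without a filter (0.83 ± 0.07, adjusted p = 0.0169). WT ZT4 pool 2 lay with the other WT arrays in Bex1. Of 127 genes within 20 Mb of Clock, 17 (13.4%) had an unadjusted p under 0.05, against 5.82% of all genes. For genes in that span, loss of Clock and DNA linked to its locus cannot be told apart here. The part of linked DNA was not tested.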
